A study of Mus musculus with 27 samples.

Results

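Aminoacyl-tRNA synthetases, the enzymes that load each tRNA with its amino acid, were followed in mouse embryonic stem (ES) cells after RNA interference against the acetyltransferase MOF and its partners. Members were 36 listed genes, 20 for cytosolic and 16 for mitochondrial enzymes, matched by current or earlier symbol, with the brightest probeset taken per gene. Of these, 34 were measured and passed the filter of a mean log2 value of at least 6 over the 27 arrays: 18 of 20 cytosolic and 16 of 16 mitochondrial genes. Aars had only a probeset that it shares with another gene, and Dars had no probeset matched by symbol, so neither has a value.

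The female line PGK12.1, whose parents were 129 (mother) and (129 X PGK)F1 (father), gave 3 arrays after siRNA labelled NSL1, 3 after MOF siRNA, 2 after MOF and MSL1 siRNA together and 3 after MSL1 siRNA. Their controls, given negative control siRNA, were 3 arrays for MOF (experiments 1 to 3) and 5 for the others (experiments A to E). The male lines WD44, from BL6 blastocysts, and E14, labelled a Cast/BL6 hybrid, each gave 2 MOF and 2 control arrays. Cells were undifferentiated, had been depleted of feeder fibroblasts on gelatin, and received 100 pmol of siRNA for 48 h, with 50 pmol of Msl1 siRNA added in the double knockdown. In experiments 1 and 2 of PGK12.1, knockdown and control cells were transfected again with 400 pmol for a further 24 h. Comparisons of the MOF difference in PGK12.1 with that of another target or line thus also differ in siRNA dose and time. The labels describe separate RNAi treatments of established lines, so p-values measure the spread between treatments of a line. In bulk RNA, fewer cells of a type and less RNA per cell cannot be told apart.

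Synthetases fall into 2 structural classes and work in separate compartments. Mitochondria translate the few proteins encoded by their own DNA with a set of nuclear-encoded synthetases, imported after synthesis, whose symbols end in 2. Several cytosolic enzymes sit in a multi-synthetase complex held together by scaffold proteins, and many cytosolic synthetase genes are known targets of ATF4, the transcription factor of the amino acid and stress response. Gars and Kars serve both compartments from 1 gene. MOF (gene symbol Kat8) acetylates histone H4 at lysine 16 in the MSL complex, of which MSL1 is a scaffold, and also works in the NSL complex.

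Kat8 was lower by limma after MOF siRNA in PGK12.1 (log2 difference -1.22, SE 0.06, adjusted p = 5.75e-08), in WD44 (-0.84) and in E14 (-0.68), and in the double knockdown (-0.87). Msl1 was lower after MSL1 siRNA (-0.97, SE 0.07, adjusted p = 4.59e-06) and in the double knockdown (-0.46). The label NSL1 could mean the NSL complex subunit Kansl1 or the kinetochore gene Nsl1. In the arrays labelled NSL1 one Kansl1 probeset was lower (-0.24, SE 0.05, adjusted p = 0.000874) and another was higher (0.50, SE 0.13, adjusted p = 0.00648). The first was lower in no other comparison, and the second was also higher after MOF siRNA in PGK12.1 (0.50) and in WD44 (0.74). Nsl1 differed by 0.16 in the NSL1 arrays (adjusted p = 0.0502). The target of those siRNAs was therefore not settled by the arrays, and NSL1 below stands for the label. The 10 ES cell markers averaged log2 values of 11.40 to 12.18 in knockdown arrays and 11.47 to 12.23 in control arrays.

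Synthetase transcripts of both compartments were lower in NSL1 arrays. Of the 34 members, 16 fell and 1 rose, against 21.4% of all 16283 probesets called lower and 18.4% called higher. The 16 were 8 of 18 cytosolic and 8 of 16 mitochondrial genes. Each of the 3 NSL1 arrays was below its own control for 18 members and above it for 8, against 31.6% and 29.2% of all probesets. The median log2 difference was -0.08 over cytosolic and -0.14 over mitochondrial members, against -0.01 over all probesets. Without Gars and Kars, which serve both compartments, the median of the other 16 cytosolic members was -0.02, with 7 of them lower. In the single experiments C, D and E the cytosolic median was -0.10, -0.08 and -0.13, and the mitochondrial median -0.07, -0.14 and -0.18. The order of the compartments was thus not the same in the 3 experiments, and no difference between the compartments was tested.

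The cytosolic enzymes with the largest differences charge tryptophan, histidine and methionine. Wars, the tryptophan enzyme and a known interferon-responsive gene, had log2 values of 10.87, 10.74 and 10.60 in the NSL1 arrays of experiments C, D and E, against 11.36, 11.24 and 11.31 in their controls. The groups did not overlap. Its level fell by 31.6% (log2 difference -0.55, SE 0.05, adjusted p = 1.85e-06). Hars, for histidine, had 9.89, 10.02 and 9.86 in NSL1 arrays and 10.25, 10.43 and 10.38 in controls (-0.41, SE 0.05, adjusted p = 2.78e-05). Mars, a member of the multi-synthetase complex that also charges the initiator tRNA, had 10.67, 10.72 and 10.64 in NSL1 arrays and 10.93, 11.00 and 11.06 in controls (-0.30, SE 0.07, adjusted p = 0.0023). Neither gene's groups overlapped.

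Kars, the lysine enzyme of both compartments, had 10.85, 11.02 and 10.82 in NSL1 arrays and 11.01, 11.19 and 11.18 in controls. The groups overlapped by a narrow margin, since the NSL1 array of experiment D lay just above the control of experiment C, but each NSL1 array was below its own control (-0.21, SE 0.05, adjusted p = 0.00333). Qars, for glutamine, differed by -0.21 (adjusted p = 0.00199). Both subunits of the cytosolic phenylalanine enzyme fell, Farsa (-0.15, adjusted p = 0.0491) and Farsb (-0.15, adjusted p = 0.0101), as did Yars, for tyrosine (-0.15, adjusted p = 0.0234). The calls of Farsa and Yars were lost under 9 of the 14 alternatives and that of Farsb under 3. The other 10 cytosolic members lay between -0.12 (Gars) and 0.15 (Cars, adjusted p = 0.0509), among them Eprs (0.01), Rars (-0.01) and Tars (0.00).

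Among mitochondrial enzymes the largest difference was in the histidine enzyme. Hars2 had log2 values of 8.45, 8.45 and 8.44 in NSL1 arrays and 8.92, 8.86 and 8.94 in their controls, and fell by 27.4% (-0.46, SE 0.05, adjusted p = 6.59e-06). Hars and Hars2 are paralogs that lie next to each other on the chromosome, with 0 genes between them in RefSeq, and cross-hybridisation between their probesets was not tested. Sars2, for serine, had 9.72, 9.72 and 9.74 in NSL1 arrays and 10.06, 10.12 and 10.13 in controls (-0.38, SE 0.05, adjusted p = 3.92e-05). The NSL1 arrays of both genes were tightly grouped and lay below every paired control.

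Lars2, the mitochondrial leucine enzyme, had 6.99, 6.81 and 6.86 in NSL1 arrays and 7.42, 7.18 and 7.19 in controls (-0.38, SE 0.05, adjusted p = 2.92e-05). Fars2, for phenylalanine, had 7.96, 7.32 and 7.32 in NSL1 arrays and 8.12, 7.90 and 7.88 in controls. The Lars2 groups did not overlap, while the Fars2 difference was -0.16 in experiment C and -0.59 and -0.56 in experiments D and E (fitted -0.41, SE 0.07, adjusted p = 0.000418). The fitted value can differ from the mean of the pairs because experiments C, D and E each hold another knockdown array. Tars2 (-0.36), Rars2 (-0.23), Aars2 (-0.22) and Cars2 (-0.19, its call lost under 3 of 14 alternatives), for threonine, arginine, alanine and cysteine, were lower too.

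Nars2, for asparagine, was the 1 member called higher. It had 8.71, 8.55 and 8.51 in NSL1 arrays and 8.46, 8.30 and 8.11 in their controls (0.28, SE 0.07, adjusted p = 0.00379). Against these 3 controls the groups did not overlap, but the controls of experiments A and B, at 8.81 and 9.00, were above all NSL1 arrays. Without the experiment block the difference was 0.05 (adjusted p = 0.82). Of the 17 NSL1 calls, 12 held under all 14 alternatives: Aars2, Fars2, Hars, Hars2, Kars, Lars2, Mars, Qars, Rars2, Sars2, Tars2 and Wars.

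**Figure D1:**
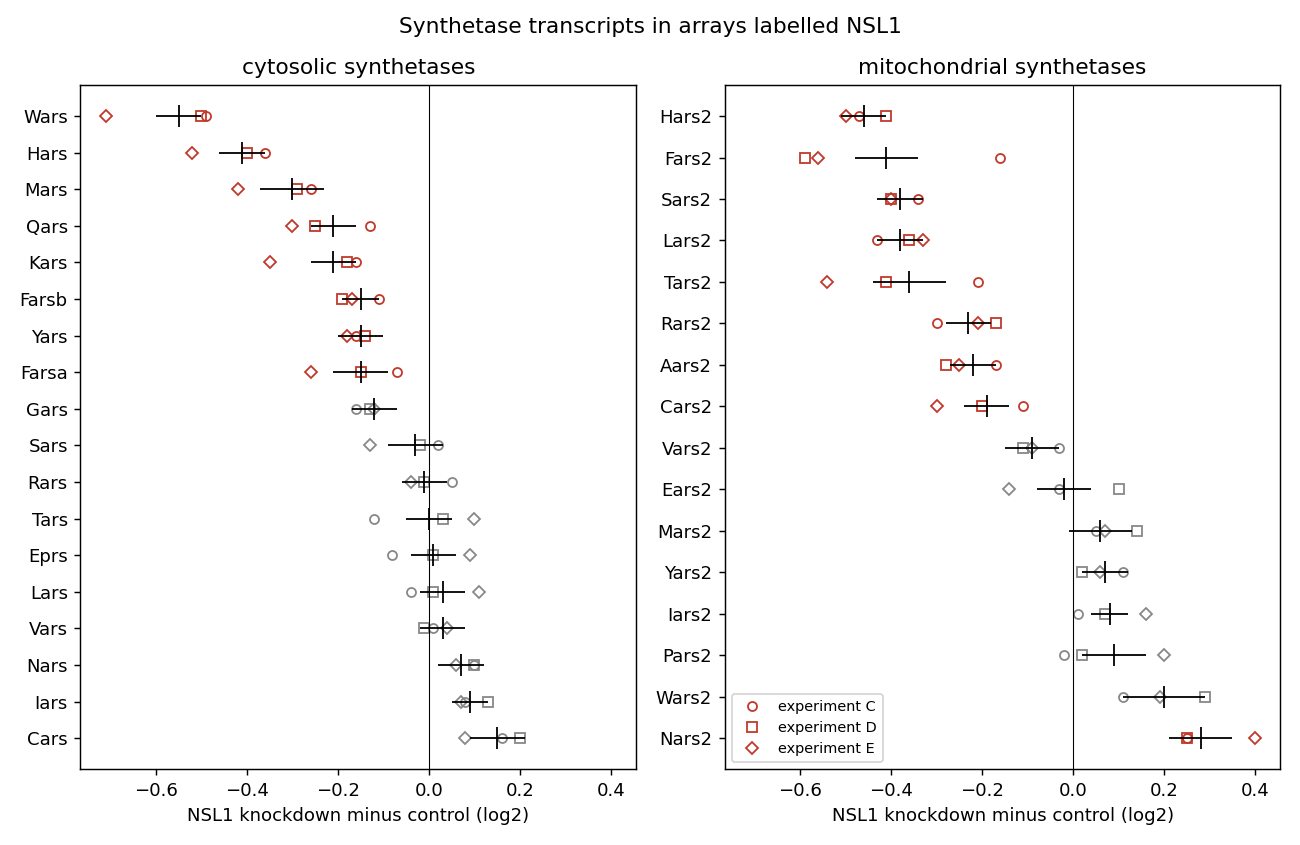
Log2 difference, NSL1 knockdown minus control of the same experiment, for 18 cytosolic (left) and 16 mitochondrial synthetases (right). Open symbols are experiments C, D and E, red where the member was called, and the black tick and bar are the fitted difference and its SE; Wars (-0.55) and Hars2 (-0.46) lie farthest below 0 and Nars2 (0.28) farthest above it.

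**Figure D2:**
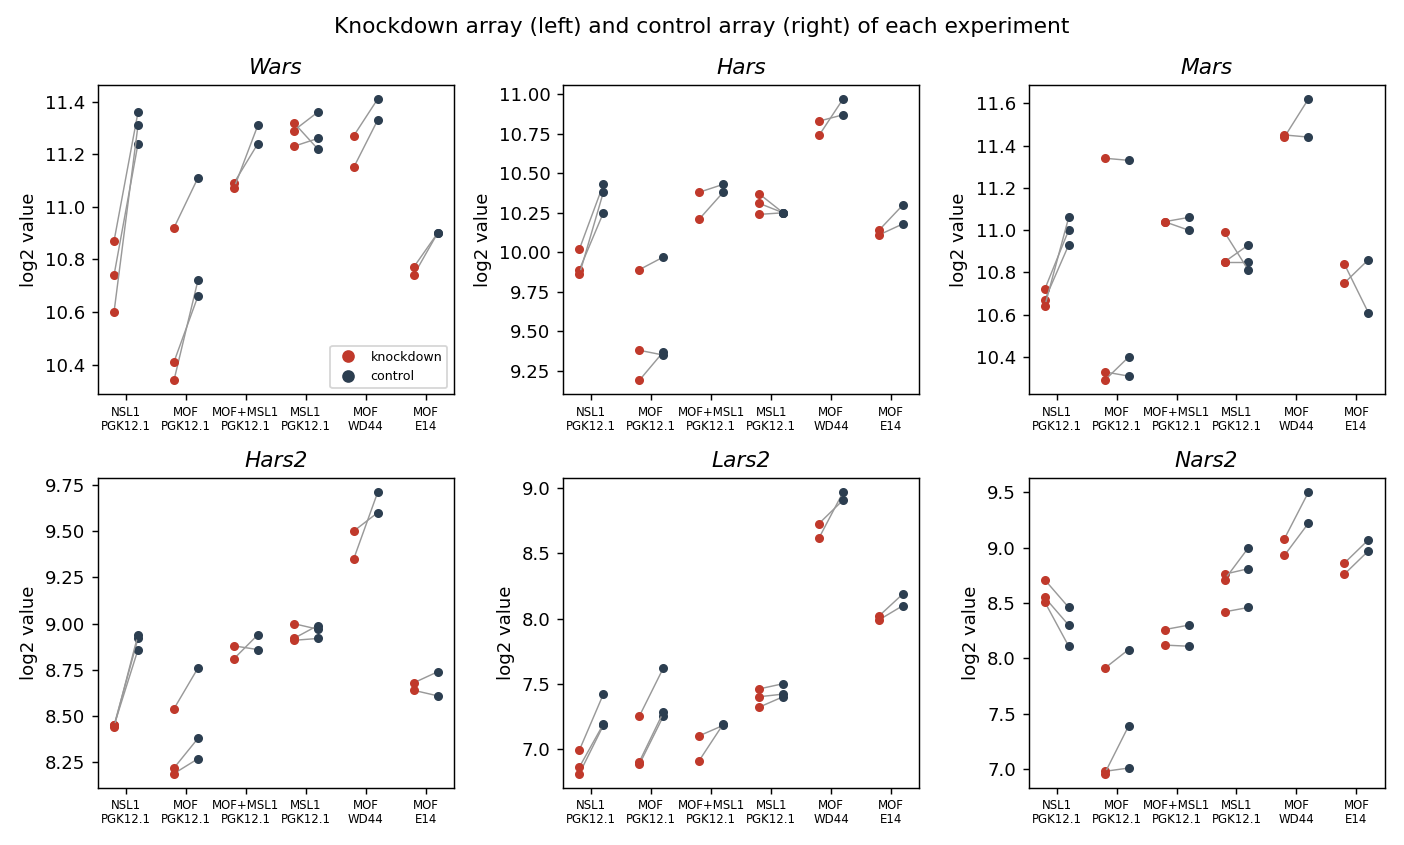
Log2 values of 6 synthetases in each knockdown array (red, left) and the control array of the same experiment (dark, right, joined by a line), by siRNA target and cell line. The NSL1 arrays of Wars, Hars, Mars, Hars2 and Lars2 lie below their controls and those of Nars2 above them; heights in different sets of experiments are not on 1 scale.

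The NSL1 differences of the cytosolic and the mitochondrial enzyme for 1 amino acid were set side by side. Members were paired by symbol for 12 amino acids, each with 1 measured member per compartment. Phenylalanine, whose cytosolic enzyme has 2 genes, and glutamate and proline, which share Eprs in the cytosol, were left unpaired. Among the 12 pairs the mitochondrial difference minus the cytosolic one was largest for tryptophan, at 0.74, and lay between 0.60 and 0.89 in the single experiments. Wars2, the mitochondrial tryptophan enzyme, had log2 values of 8.44, 8.12 and 8.19 in NSL1 arrays and 8.33, 7.83 and 8.01 in controls (0.20, adjusted p = 0.0819), so its groups overlapped although each NSL1 array was above its control. For leucine the gap ran the other way, at -0.41. Lars, the cytosolic enzyme, had 10.69, 11.07 and 11.07 in NSL1 arrays and 10.73, 11.06 and 10.95 in controls (0.03, adjusted p = 0.717). Threonine (-0.36), serine (-0.35), cysteine (-0.33), arginine (-0.22) and valine (-0.12) also had the lower mitochondrial difference. Methionine (0.36), asparagine (0.22) and tyrosine (0.22) had the lower cytosolic one. Histidine (-0.05) and isoleucine (-0.01) had nearly equal differences in both compartments. These gaps compare differences, not levels, and were not tested.

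**Figure D3:**
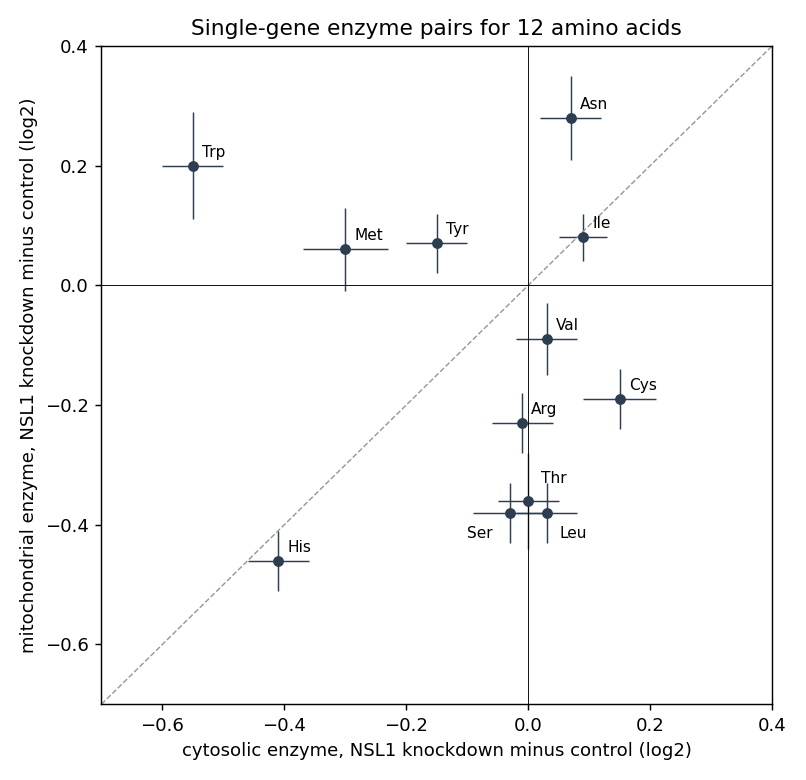
NSL1 knockdown minus control (log2) for the cytosolic enzyme (horizontal axis) and the mitochondrial enzyme (vertical axis) of 12 amino acids, with bars of 1 SE; on the dashed line both are equal. Tryptophan, methionine, asparagine and tyrosine lie above the line, leucine, serine, threonine, cysteine, arginine and valine below it. Isoleucine and histidine lie close to it, histidine with both enzymes lower.

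Of the 7 measured enzymes of the multi-synthetase complex 3 fell in NSL1 arrays (Mars, Kars and Qars), and of the 11 other cytosolic members 5 fell. Of 11 cytosolic genes reported as ATF4 targets 3 fell, with a median of 0.00, and of the 7 others 5 fell, with a median of -0.15. Among mitochondrial enzymes 5 of 7 of class II and 3 of 9 of class I fell. None of these splits was tested. Beyond the synthetases, the ATF4 target list had 8 of 32 tested genes higher and 9 lower, near the 18.4% and 21.4% of all probesets. They included Atf3 (0.79), a stress-induced transcription factor, and Sesn2 (0.42), a regulator of mTORC1, higher and Psph (-0.53), of serine synthesis, and Chac1 (-0.52), a glutathione-degrading enzyme, lower.

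Promoters are shown for members with different NSL1 results. RefSeq promoter entries (GRCm38.p6) matched 25 of the 34 measured members, 11 cytosolic and 14 mitochondrial, and 7 motifs were searched on both strands in 2 windows: the 250 bases before the start, and those with 50 bases after it. The C/EBP-ATF response element (CARE, TGATGNAA), the site through which ATF4 acts, was in 2 of 11 cytosolic promoters in the shorter window (Gars and Tars) and in 4 of 11 in the longer one (also Iars and Yars), and in 0 of 14 mitochondrial promoters in both. It was in 3.45% of all 32851 promoters in the shorter window and 3.97% in the longer. The ETS core CCGGAAG was in 4 of 11 cytosolic and 3 of 14 mitochondrial promoters in the shorter window, against 6.91% of all, and in 5 and 4 in the longer, against 8.86%. Among the 13 promoters of members called lower with NSL1 the ETS core was in 4 in the shorter window and 6 in the longer, and among the 12 others in 3 in both. Counted in cytosolic and mitochondrial promoters in turn, the E-box CACGTG was in 2 and 0 (6.02% of all) and then in 3 and 1 (7.15%), the NRF1 motif in 2 and 0 (3.74%) and then in 3 and 2 (4.6%), and CCAAT in 6 and 5 (33.8%) and then in 6 and 6 (37.4%). The YY1 motif was in none in the shorter window (0.301% of all) and in 0 and 2 in the longer (0.852%), and the ZNF143 motif in none in either (1.82% and 1.98%). No motif matches of members overlapped one another. The motifs were picked with the members' results known, the counts depend on the window, and a match is a description and no evidence of binding.

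The 250 bases before the start are printed 5′ to 3′ on the gene's strand. Capitals mark CARE in Gars (chr6:55037751-55038000, plus strand) and Tars (chr15:11399659-11399908, minus strand), whose transcripts were not called in NSL1 arrays, and the ETS core in Mars (chr10:127311787-127312036, minus strand) and Sars2 (chr7:28741718-28741967, plus strand), which fell. Only 1 motif is capitalised per sequence, and matches to the others stay in lower case, among them an ETS core in Gars. Neither motif went with one NSL1 result: the ETS core was also in Sars and Mars2, which were not called. CARE was also in Yars, which fell, in the longer window. Lars2 (chr9:123366677-123366926, plus strand), which fell, and Nars2 (chr7:96951277-96951526, plus strand), which was higher, held none of the 7 motifs in either window.
Gars: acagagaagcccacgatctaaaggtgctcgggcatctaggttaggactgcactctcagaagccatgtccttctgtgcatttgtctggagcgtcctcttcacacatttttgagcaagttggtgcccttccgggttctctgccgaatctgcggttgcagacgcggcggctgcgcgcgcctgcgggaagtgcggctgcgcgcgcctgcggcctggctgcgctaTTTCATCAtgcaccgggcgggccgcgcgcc
Tars: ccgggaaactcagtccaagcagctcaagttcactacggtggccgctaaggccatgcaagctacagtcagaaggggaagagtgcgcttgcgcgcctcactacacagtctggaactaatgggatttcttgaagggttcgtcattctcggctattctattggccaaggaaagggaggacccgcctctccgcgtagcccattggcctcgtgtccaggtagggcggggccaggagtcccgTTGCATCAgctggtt
Mars: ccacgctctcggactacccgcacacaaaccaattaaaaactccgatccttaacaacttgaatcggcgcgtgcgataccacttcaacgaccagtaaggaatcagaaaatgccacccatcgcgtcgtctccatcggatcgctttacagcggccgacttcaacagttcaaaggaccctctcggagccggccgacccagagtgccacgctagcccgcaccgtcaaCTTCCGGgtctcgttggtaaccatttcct
Sars2: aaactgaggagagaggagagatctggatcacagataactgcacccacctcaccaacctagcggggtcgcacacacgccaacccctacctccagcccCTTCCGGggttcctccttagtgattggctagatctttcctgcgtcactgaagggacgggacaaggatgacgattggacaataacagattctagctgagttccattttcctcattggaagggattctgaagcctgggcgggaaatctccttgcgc
Lars2: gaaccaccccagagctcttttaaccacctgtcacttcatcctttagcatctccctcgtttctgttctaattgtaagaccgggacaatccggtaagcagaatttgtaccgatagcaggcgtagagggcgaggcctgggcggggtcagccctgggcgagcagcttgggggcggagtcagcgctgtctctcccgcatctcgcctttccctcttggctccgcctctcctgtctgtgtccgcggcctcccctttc
Nars2: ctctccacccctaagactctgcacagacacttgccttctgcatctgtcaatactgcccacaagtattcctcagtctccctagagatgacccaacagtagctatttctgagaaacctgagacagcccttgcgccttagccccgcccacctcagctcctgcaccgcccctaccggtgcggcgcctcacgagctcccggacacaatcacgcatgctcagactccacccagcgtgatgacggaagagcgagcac

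MOF knockdown in PGK12.1 moved few synthetases: 1 member was higher and 3 lower, against 9.49% of all probesets called higher and 13.9% called lower. Lars2 had log2 values of 6.88, 6.90 and 7.25 in MOF arrays of experiments 1 to 3, against 7.25, 7.28 and 7.62 in their controls. Each MOF array was below its own control by nearly the same amount, while the array of experiment 3 reached the level of the control of experiment 1, whose set had lower array medians (-0.37, SE 0.05, adjusted p = 0.000212). Wars had 10.34, 10.41 and 10.92 in MOF arrays and 10.72, 10.66 and 11.11 in controls (-0.27, SE 0.06, adjusted p = 0.00296). Both calls held under all 13 alternatives.

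Nars2 was lower after MOF siRNA in PGK12.1, with 6.98, 6.96 and 7.91 in MOF arrays and 7.01, 7.39 and 8.08 in controls (-0.21, adjusted p = 0.0423), and its differences of -0.03, -0.43 and -0.17 varied widely. Cars, for cysteine, was higher, with 9.91, 10.02 and 10.87 in MOF arrays and 9.85, 9.72 and 10.55 in controls (0.23, adjusted p = 0.0125). The Nars2 call was lost under 8 of 13 alternatives and the Cars call under 5, both also when experiment 2 or experiment 3 was left out. All 3 MOF arrays were below their own controls for 12 members and above them for 3, against 25.5% and 22.3% of all probesets. The median was -0.01 over cytosolic and -0.07 over mitochondrial members, against 0.00 over all probesets.

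In WD44, 4 mitochondrial members and 0 of 18 cytosolic ones were lower after MOF siRNA and none was higher, against 7.98% of all probesets called lower and 4.38% called higher. Among the cytosolic members 2 had an unadjusted p under 0.05. The median was -0.09 over cytosolic and -0.10 over mitochondrial members, against -0.02 over all probesets. In experiments 1 and 2 the cytosolic median was -0.16 and 0.00, and the mitochondrial median -0.11 in both. The order of the compartments thus changed between the experiments, and no difference between them was tested. Nars2 had 8.93 and 9.08 in MOF arrays and 9.22 and 9.50 in controls (-0.35, SE 0.09, adjusted p = 0.0185). Lars2 had 8.62 and 8.73 in MOF arrays and 8.97 and 8.91 in controls (-0.27, SE 0.06, adjusted p = 0.0191). In neither gene did the groups overlap.

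Both WD44 MOF arrays were below their own controls for 19 members and above them for 1, against 38.7% and 29.2% of all probesets. The 19 were 8 of 18 cytosolic and 11 of 16 mitochondrial members. Hars2 had 9.35 and 9.50 in WD44 MOF arrays and 9.71 and 9.60 in controls (-0.23, adjusted p = 0.0373), and Iars2, for isoleucine, had 10.74 and 10.79 in MOF arrays and 10.94 and 11.00 in controls (-0.20, adjusted p = 0.0267). No WD44 call held under all alternatives: without the block, or without an array of experiment 1, 0 members were called. Of 8 fibroblast markers tested in WD44, Col1a1 (0.38), Col1a2 (0.30) and Col3a1 (0.30), collagens that feeder fibroblasts make, were higher with MOF siRNA and Mmp2 (-0.28) lower, and none was called without the block or without an array of experiment 1. The 11 fibroblast markers with a probeset, tested or not, averaged 8.01 and 8.01 in MOF arrays and 7.86 to 8.00 in controls. Of 10 endoderm and trophectoderm markers in WD44 Hand1 (0.35) was higher and Dab2 (-0.33) lower, and neither was called without the block or without any 1 of the 4 WD44 arrays. Of all probesets, 4.38% were called higher and 7.98% lower in WD44. The part of these marker differences in the synthetase differences of WD44 was not tested.

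In E14 no member was called by limma after MOF siRNA, with 8.33% of all probesets called, and 5 members had an unadjusted p under 0.05. Nars2 had 8.76 and 8.86 in E14 MOF arrays and 8.97 and 9.07 in controls, and Lars2 had 7.99 and 8.02 in MOF arrays and 8.10 and 8.19 in controls. These genes are shown because they were called in other comparisons. Their MOF arrays lay below the controls, but neither was called, and how many of all probesets show such a pattern was not counted. Sars2 (-0.18) and Rars2 (-0.17) differed by more than Lars2 (-0.14), and Sars differed by 0.16. For 12 members both E14 MOF arrays were below their own controls and for 10 above them, against 32.1% and 32.7% of all probesets. The test of the MOF difference between lines called 0 of 34 members for WD44 minus PGK12.1 (2.21% of all probesets called, 1 member with an unadjusted p under 0.05), for E14 minus PGK12.1 (2.5%, 3 members) and for E14 minus WD44 (1.39%, 7 members).

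After MSL1 siRNA no member was called by limma, with 0.184% of all probesets called, and 1 member had an unadjusted p under 0.05. Member differences lay between -0.17 and 0.14, and all 3 MSL1 arrays were below their own controls for 5 members and above them for 4, against 15.3% and 14.4% of all probesets. The double knockdown of MOF and MSL1 likewise gave 0 called members, with 6.44% of all probesets called and 4 members with an unadjusted p under 0.05. Wars had 11.09 and 11.07 in the double knockdown and 11.24 and 11.31 in controls, and Lars2 had 7.10 and 6.91 in the double knockdown and 7.18 and 7.19 in controls. In the double knockdown both arrays were below their own controls for 6 members and above them for 16, against 33% and 31.8% of all probesets. The double knockdown minus MOF (0.276% of all probesets called) and minus MSL1 (0.442%) gave 0 called members, with 0 and 1 at an unadjusted p under 0.05. Without the block the double knockdown minus MSL1 gave 12, 7 higher and 5 lower, with 6591 of all 16283 probesets called, and minus MOF it again gave 0.

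**Figure D4:**
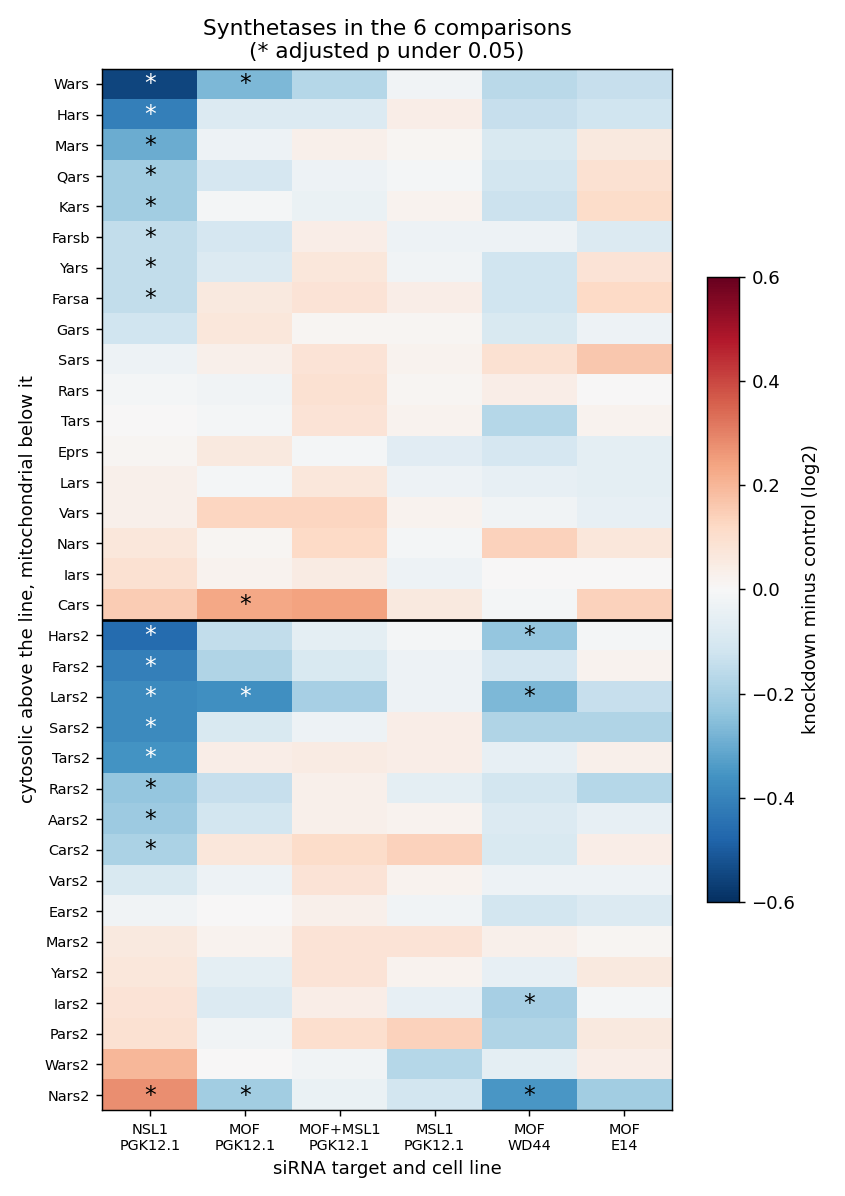
Fitted log2 difference, knockdown minus control, of the 34 synthetases (rows, cytosolic above the line) in the 6 comparisons (columns), blue lower and red higher in knockdown; an asterisk marks adjusted p under 0.05. The NSL1 column holds 17 asterisks, MOF in PGK12.1 and in WD44 hold 4 each, and the other columns none.

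**Figure D5:**
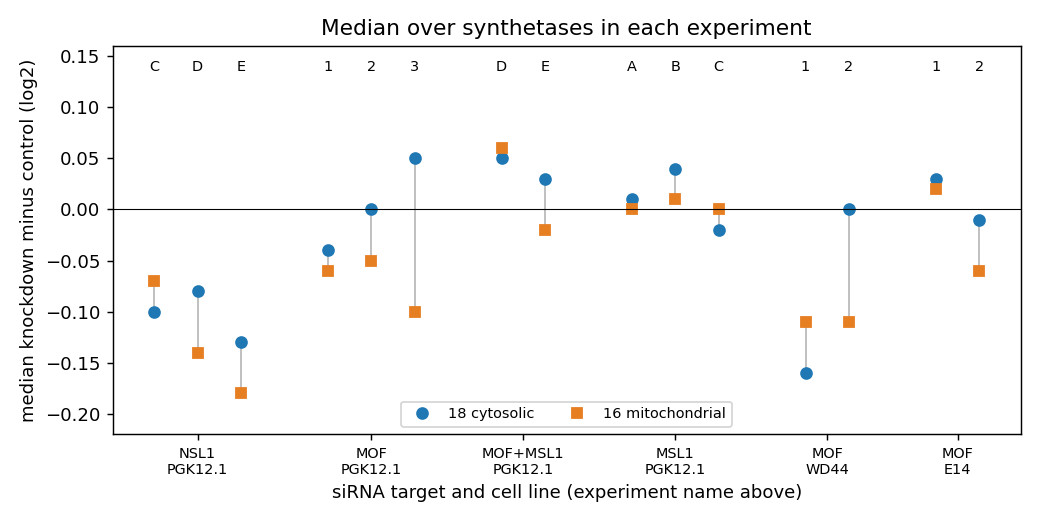
Median log2 difference, knockdown minus control, over 18 cytosolic (circles) and 16 mitochondrial (squares) synthetases in each experiment. Both medians are below 0 in NSL1 experiments C, D and E, and the mitochondrial median is below the cytosolic one in MOF experiments 1 to 3 of PGK12.1. The cytosolic median is the lower one in experiment C of NSL1 and of MSL1, experiment D of the double knockdown and experiment 1 of WD44.

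The NSL1 difference was tested directly against those of the other PGK12.1 knockdowns. NSL1 minus MOF, which share no controls, was lower in 6 members and higher in 1, against 7.78% and 8.22% of all probesets. In this test the siRNA target cannot be told apart from the second transfection that part of the MOF experiments had. The 6 were Tars2 (-0.40), Hars (-0.34), Hars2 (-0.31, adjusted p = 0.0137), Sars2 (-0.29), Wars (-0.27) and Cars2 (-0.25), and Nars2 was higher by 0.49 (SE 0.10, adjusted p = 0.00459). Of these 7 calls, 1, that of Hars2, held under all 19 alternatives. NSL1 minus MSL1, which share the control of experiment C, was lower in 12 members and higher in 2, Nars2 (0.39) and Wars2 (0.36), against 17% and 15.4% of all probesets. NSL1 minus the double knockdown, which share the controls of experiments D and E, was lower in 16 and higher in 1, Nars2 (0.32), against 15.2% and 11.3%. Of the 14 calls against MSL1, 10 held under all 18 alternatives, and of the 17 against the double knockdown 2 held under all 16, those of Hars2 and Wars. Wars differed by -0.53 (adjusted p = 4.65e-05) against MSL1 and by -0.38 (adjusted p = 0.000716) against the double knockdown.

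Genes that work beside the mitochondrial synthetases were lower in NSL1 arrays as well. The list for mitochondrial tRNA processing and modification also holds mitochondrial rRNA and transcription genes, among them Nsun4, Mterf4, Tfb1m and Tfb2m. Of its 23 genes 14 fell, including Nsun4 (-0.40) and Mterf4 (-0.46), and 3 rose. The median was -0.24, against 21.4% of all probesets lower and 18.4% higher. Osgepl1 (-0.68), Cdk5rap1 (-0.57) and Trmt5 (-0.58), which modify the base beside the anticodon, and Elac2 (-0.33), which trims tRNA 3′ ends, were among the lower genes. Of 16 mitochondrial translation factors and expression genes 10 fell and 1 rose (median -0.23), including the release factor Mtrf1 (-0.74), the elongation factor Gfm2 (-0.54) and Taco1 (-0.59), a translational activator. The amidotransferase that makes mitochondrial glutaminyl-tRNA, in place of a synthetase for glutamine, has 3 listed subunit genes. Of these, Gatb (-0.43) and Gatc (-0.32) fell too, while Qrsl1 was not called by limma (-0.02, adjusted p = 0.845).

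On the cytosolic side 3 of 16 translation factors fell and 1 rose in NSL1 arrays, with a median of -0.02, and the share that fell was no larger than the 21.4% of all probesets (8 were called in all with array weights). The 3 were Eif2b1 (-0.37), Eif2b2 (-0.47) and Eif2b3 (-0.19), subunits of the exchange factor that recharges the initiation factor eIF2, and Eif5 (0.25) rose. Of the 3 scaffold genes of the multi-synthetase complex Aimp1 fell (-0.28). Tars3, a further threonine synthetase gene outside the list, fell too (-0.38). In nuclear tRNA transcription and processing 8 of 38 genes rose and 8 fell (2 and 7 without the block), near the 18.4% and 21.4% of all probesets. Among the lower ones were Rpp30 (-0.58), of ribonuclease P, and Elp4 (-0.41), of the Elongator complex.

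After MOF siRNA in PGK12.1 the mitochondrial tRNA list had 8 of 23 genes lower and 2 higher (median -0.10), and the mitochondrial translation list 8 of 16 lower and none higher (median -0.22), against 13.9% of all probesets lower and 9.49% higher. Mtrf1 (-0.58) and Taco1 (-0.34) were among the lower genes of the translation list. Osgepl1 (-0.54), Tfb1m (-0.41) and Mterf4 (-0.33) were among those of the tRNA list. Without the experiment block the tRNA list had 5 lower and 1 higher, and the translation list 4 lower. In WD44 the lists had 6 and 4 lower genes, against 7.98% of all probesets, but 1 and 0 without the block or without an array of experiment 1, and after MSL1 siRNA neither list had a called gene. Of 10 endoderm and trophectoderm markers tested, 4 rose in NSL1 arrays (2 without the block): Eomes (0.52), Dab2 (0.45), Gata6 (0.37) and Gata3 (0.33). All 12 markers of this list, tested or not, averaged 6.78 to 7.05 in NSL1 arrays and 6.60 to 7.01 in the lettered controls. Of 10 ES cell markers Tdgf1 (-0.19) and Utf1 (-0.25) fell (1 gene without the block or without the NSL1 array of E). Of 8 fibroblast markers Thy1 (-0.23) and Pdgfrb (-0.34) fell and Mmp2 (0.20) rose in NSL1 arrays (1 gene called without the NSL1 array of E). With NSL1, 18.4% of all probesets were called higher and 21.4% lower, so the lower counts of ES cell and fibroblast markers were near that share.

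After MOF siRNA in PGK12.1 the ES cell markers Nanog (-0.14), Tdgf1 (-0.17) and Utf1 (-0.25) were lower, while 1 was called without the block and 0 or 1 without any 1 array of experiments 1 to 3. Gata3 (0.28) was the 1 endoderm or trophectoderm marker called, with none called without the block. Of all probesets, 9.49% were called higher and 13.9% lower after MOF siRNA in PGK12.1. The part of these marker differences in the synthetase differences was not tested.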

How the data were processed

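Total RNA was hybridised to 27 Affymetrix arrays. The authors deposited log2 expression values, made with Affymetrix Expression Console and RMA per the submitters' processing notes; the genome build and tool versions are not given in the sources used here. The median of an array was 6.22 at the lowest and 7.96 at the highest and differed by set of experiments, so levels are compared within an experiment. Probesets with a mean log2 of at least 6 and a gene symbol (16283 of 35556) were fitted with limma 3.58.1 in R 4.3.3, over all 27 arrays, with the 12 experiments as a block and 6 knockdown terms (9 residual degrees of freedom). Calls are at a Benjamini-Hochberg adjusted p under 0.05 over all 16283. The block was chosen as the main design with results of both fits already known. The labels name the experiment that each knockdown array shares with its control, and the pairing was taken from them. Deviations from the group means correlated at -0.097 to 0.867 between a knockdown array and its own control, and 10 of 15 knockdown arrays correlated best with it. The 10 include all WD44 and E14 arrays, for which this count cannot judge the pairing. With 2 arrays per group the deviations mirror each other, so any positive correlation counts as best (0.011 against -0.011 in WD44, 0.129 against -0.129 in E14). The fit was tested on simulated data over 16283 probesets, with 50 probesets changed per size in each comparison. It recovered 100% of probesets lowered by 0.5 and 56% of those lowered by 0.25 for NSL1, against 76% and 26% for MOF in WD44. Far more probesets were called in the NSL1 and WD44 arrays than were changed in the simulation, so these rates need not hold for the data.

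The members, gene lists and tests were chosen with earlier results of these data known. Members were named called first, by size of difference, and arrays were given in full for at most 4 called members per compartment and direction, plus the amino acid pairs that differed most. In E14 and the double knockdown, where none was called, arrays were given for members called in other comparisons. From other lists, up to 4 called genes with the smallest p were named. Nsun4 and Mterf4 were named outside this rule, as rRNA and transcription genes of the mitochondrial tRNA list. Alternatives were a fit without the block, other filters, centring, cyclic loess, array weights, experiments D and E alone, and leaving out each array. A further one, the median over all probesets of a gene, changed only the values of Iars. Iars was not called, so that alternative hardly tests the calls of the other members. Promoter sequences are RefSeq's on GRCm38.p6. The promoter motifs were also chosen with the members' results known, and the first search took the whole 300-base window, before the 250-base window was added. Arrays carry no read depth, and their number limits the precision.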

Additional observations from a re-analysis of the deposited data

Results flagged for a closer look

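In the 1 group of 5 arrays, the lettered PGK12.1 controls, none of the 34 members had an array far from the others by Dixon's criterion (0 of 34 tested). These controls span 2 sets of experiments, with array medians of 6.76 to 6.77 in A to C and 6.39 and 6.42 in D and E. A step between sets widens the range by which the criterion divides, so it can hide a single far array. No member's MOF difference was called as different between cell lines.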

How the results depend on the processing

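Over the 40 summaries of the comparisons and gene lists, 460 of 546 values under an alternative stayed close to the reported value. Without the experiment block, 2 members were called for MOF in PGK12.1, 2 for MOF and MSL1, 0 for MOF in WD44, 1 for NSL1 minus MOF, 9 for NSL1 minus MOF and MSL1, and 12 for MOF and MSL1 minus MSL1. In that fit the cytosolic minus the mitochondrial median was -0.08 for MSL1, 0.13 for NSL1 and 0.17 for MOF and MSL1. Nars2 (-0.04) and Wars2 (-0.02) reversed there in NSL1 minus MSL1. The steps between sets of experiments enter the fit without the block. For MOF and MSL1, 2 members were called with a mean log2 of at least 7, 1 with each array centred and 1 with array weights. For MOF in WD44, 2 were called with each array centred and 1 with cyclic loess. Cyclic loess gave a cytosolic minus mitochondrial median of -0.01 for E14, and array weights gave 11 calls for NSL1 minus MOF. The cause of these shifts was not tested.

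Leaving out 1 array at a time gave 13 to 16 called members for NSL1, 2 to 4 for MOF in PGK12.1 (2 without either array of experiment 2 or 3) and 0 to 2 for MOF in WD44 (0 without experiment 1, 2 without experiment 2). It gave 3 to 11 for NSL1 minus MOF, with 3 without the experiment 2 arrays, the NSL1 array of D or the control of E, 4 without the experiment 3 arrays or the NSL1 array of E, and 11 without the NSL1 array of C. For NSL1 minus MOF and MSL1 it gave 4 to 17, with 9 and 8 without the NSL1 arrays of D and E, and 4 and 8 without the double-knockdown arrays of D and E. The cytosolic minus mitochondrial median lay between -0.02 and 0.03 for MSL1, -0.03 and 0.08 for MOF and MSL1, -0.05 and 0.11 for MOF in WD44, and 0.04 and 0.08 for NSL1. For single members, 816 of 991 values kept their call, 173 lost it and 2 reversed. These totals also count both arrays of an experiment with 1 knockdown and 1 control array, which give the same fit. Differences near 0.25 were missed in part in the simulated data, so a member that was not called may still differ.

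The alternatives for the other gene lists were added after seeing the data. Without the block, MOF siRNA in PGK12.1 gave 6 called genes in the mitochondrial tRNA list and 4 in the mitochondrial translation list, and in WD44 these lists gave 1 and 0 and the fibroblast markers 0. In the same fit NSL1 gave 9 for nuclear tRNA processing, 2 endoderm and trophectoderm markers and 1 ES cell marker. Array weights gave 8 cytosolic translation factors for NSL1 and 1 mitochondrial translation gene for MSL1. For WD44 the mitochondrial translation list had 2 calls with each array centred and 2 with cyclic loess. Leaving out 1 array gave 9 to 14 calls for nuclear tRNA processing with NSL1 (9 without either control of D or E, 10 without the NSL1 array of D) and 1 to 2 ES cell markers (1 without the NSL1 array of E). In WD44 it gave 1 to 3 for mitochondrial tRNA, 0 to 3 for mitochondrial translation and 0 to 2 for fibroblast markers, the lowest without an array of experiment 1. For the WD44 endoderm and trophectoderm markers, 1 was called with no filter, 4 with each array centred, 1 with array weights, and 0 without the block or without any 1 WD44 array. For MOF in PGK12.1 that list had 0 calls without the block and 2 with each array centred. The ES cell markers there had 1 call without the block, with each array centred or with array weights, and 0 to 1 without 1 array (0 without experiment 2). The NSL1 fibroblast markers had 1 to 3 calls without 1 array, with 1 without the NSL1 array of E.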
